A study of Mus musculus with 12 samples.

Results

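Genes of MHC class II molecules and of peptide loading were described in microglia, the resident macrophages of the brain, sorted from the hippocampus of mouse pups. The group was the 8 class II genes H2-Aa, H2-Ab1, H2-Eb1, H2-DMa, H2-Ob, Cd74, Ciita and Ctss, chosen by name, and the count table held all 8 among its 545 immune genes. The samples were 6 pups at postnatal day 28 (P28) and 6 pups at postnatal day 14 (P14), all control males of the Balbc strain, each from a different litter, raised under the control condition of a study on early life stress. Microglia were isolated by Percoll gradient and FACS, and the gate's markers are not stated in the labels. The readout was nCounter, with a mouse immune panel in which each target is captured with a fluorescent barcode and the barcodes are counted without sequencing. The comparison asked how these transcripts differ in microglia between the ages.

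MHC class II molecules are pairs of an alpha and a beta chain that carry peptides from endosomes to the cell surface, where CD4 T cells read them. The newly made pair is held by the invariant chain Cd74, which proteases such as cathepsin S trim to a short stub in the groove. The molecule H2-DM, of which H2-DMa is a chain, exchanges that stub for other peptides, and H2-O, of which H2-Ob is a chain, restrains H2-DM. The transcriptional coactivator Ciita drives most of these genes together, mainly in B cells and dendritic cells and, after interferon gamma, in macrophages. Microglia are known for low class II levels at rest and for higher levels in inflammation.

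The class II coactivator complex sits on short promoter boxes, so the starts of members were read from RefSeq. Capitals mark the letters searched for where they lie on the printed strand. All 8 members matched a RefSeq record by accession, and windows of 250 bases before to 50 after the gene start were read for 5 of them. No window was available for H2-Ab1, Cd74 and Ciita, so their starts were not searched. The windows listed for H2-DMa may not be at its own start and are left out. The first 3 windows are shown because they hold, in the same arrangement, the letters GCAAC found in the classical X box and the letters ATTGG of the Y box. The window of Ctss, shown for the member with the smallest adjusted p, holds GAAA, 2 free bases and GAAA, as in a site type bound by interferon regulatory factors. The mice were of another strain than the C57BL/6J mice of that reference.
H2-Ob promoter, GRCm38.p6 chr17:34238655-34238954, plus strand: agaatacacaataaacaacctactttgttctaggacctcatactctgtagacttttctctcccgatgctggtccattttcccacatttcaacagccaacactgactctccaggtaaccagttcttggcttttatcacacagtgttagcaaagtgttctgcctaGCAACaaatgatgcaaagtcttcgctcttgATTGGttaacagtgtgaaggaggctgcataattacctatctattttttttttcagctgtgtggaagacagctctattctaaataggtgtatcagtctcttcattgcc
H2-Aa promoter, GRCm38.p6 chr17:34287774-34288073, minus strand: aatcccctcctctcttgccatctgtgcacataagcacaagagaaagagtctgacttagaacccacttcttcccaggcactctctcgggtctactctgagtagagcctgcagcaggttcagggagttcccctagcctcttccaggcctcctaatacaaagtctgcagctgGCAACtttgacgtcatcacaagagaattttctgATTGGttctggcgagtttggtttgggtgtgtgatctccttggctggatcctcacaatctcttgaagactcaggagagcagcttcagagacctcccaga
H2-Eb1 promoter, GRCm38.p6 chr17:34305617-34305916, plus strand: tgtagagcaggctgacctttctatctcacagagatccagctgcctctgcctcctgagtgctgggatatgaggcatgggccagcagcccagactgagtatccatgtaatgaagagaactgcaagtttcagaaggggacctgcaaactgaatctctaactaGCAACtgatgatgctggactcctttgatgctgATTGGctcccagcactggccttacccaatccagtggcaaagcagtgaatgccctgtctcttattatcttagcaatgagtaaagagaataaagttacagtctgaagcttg
Ctss promoter, GRCm38.p6 chr3:95526536-95526835, plus strand: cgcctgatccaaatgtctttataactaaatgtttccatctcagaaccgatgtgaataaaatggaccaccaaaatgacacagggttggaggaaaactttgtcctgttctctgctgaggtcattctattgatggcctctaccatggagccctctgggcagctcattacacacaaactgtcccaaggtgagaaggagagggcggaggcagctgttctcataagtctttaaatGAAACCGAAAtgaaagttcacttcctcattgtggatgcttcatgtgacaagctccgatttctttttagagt

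In H2-Ob, GCAAC and ATTGG were 25 bases apart and began 87 and 57 bases before the gene start. In H2-Aa they were 28 bases apart, and in H2-Eb1 27 bases apart. A further ATTGG on the other strand of H2-Eb1, 35 bases before the gene start, is not in capitals. Searched on both strands, GCAAC was found in 35.2% and ATTGG in 37.4% of 32851 mouse promoter windows of the same length, and GCAAC followed by ATTGG after 10 to 40 bases in 1.43%. The arrangement was shared by H2-Ob, which was well above background at both ages, and by H2-Aa and H2-Eb1, which were not. In Ctss, GAAA, 2 free bases and GAAA began 21 bases before the gene start, and 3.44% of the windows held that run on either strand. These matches describe the letters only.

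Levels below are barcode counts divided by a sample factor made from 6 reference genes. A gene was tested when 40% or more of the samples had a raw count above a background line, the mean plus 2 SD of the negative controls in that lane. This line lay between 24.8 and 33.4 raw counts in P28 lanes and between 12.9 and 32.0 in P14 lanes. Raw totals over the 545 genes were 1025196 to 1534665 in P28 samples and 356398 to 1316430 in P14 samples. P14 samples 5 and 4 had the lowest totals of all samples, 356398 and 772723. The positive-control probes, which are spiked in and not made by the cells, had geometric means of 1069 to 1235 counts in P28 lanes and 542 to 651 in P14 lanes, with no overlap. The lane difference and age cannot be told apart. All 12 microglia marker genes in the table, such as Cx3cr1, Csf1r and Trem2, passed this presence rule. The RNA is of sorted cells in bulk, so more cells of a type and more RNA per cell cannot be told apart.

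The protease gene Ctss, the loading genes H2-Ob and H2-DMa and the classical beta chain H2-Ab1 were higher in microglia at P28 than in microglia at P14. Of the 8 members, 6 were tested and 2 were not, and of the 6 tested 4 were higher at P28, 0 were lower and 2 did not pass an FDR of 0.05. Among all 366 genes tested, 16.7% were higher and 13.9% lower by the same rule, 30.6% in either direction. An unadjusted p under 0.05 was reached by 5 of the 6 members and by 43.2% of all genes tested. The median log2 fold change (P28 over P14) was 0.79 over the 6 members and 0.00255 over all genes tested. The split of calls over all genes depended on the scale: 61 were higher and 51 lower with 6 reference genes, against 93 and 36 with the authors' factors, 89 and 42 with all 14 reference genes, 50 and 74 without Polr1b, 51 and 96 with total counts and 8 and 128 with positive controls alone.

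**Figure D1:**
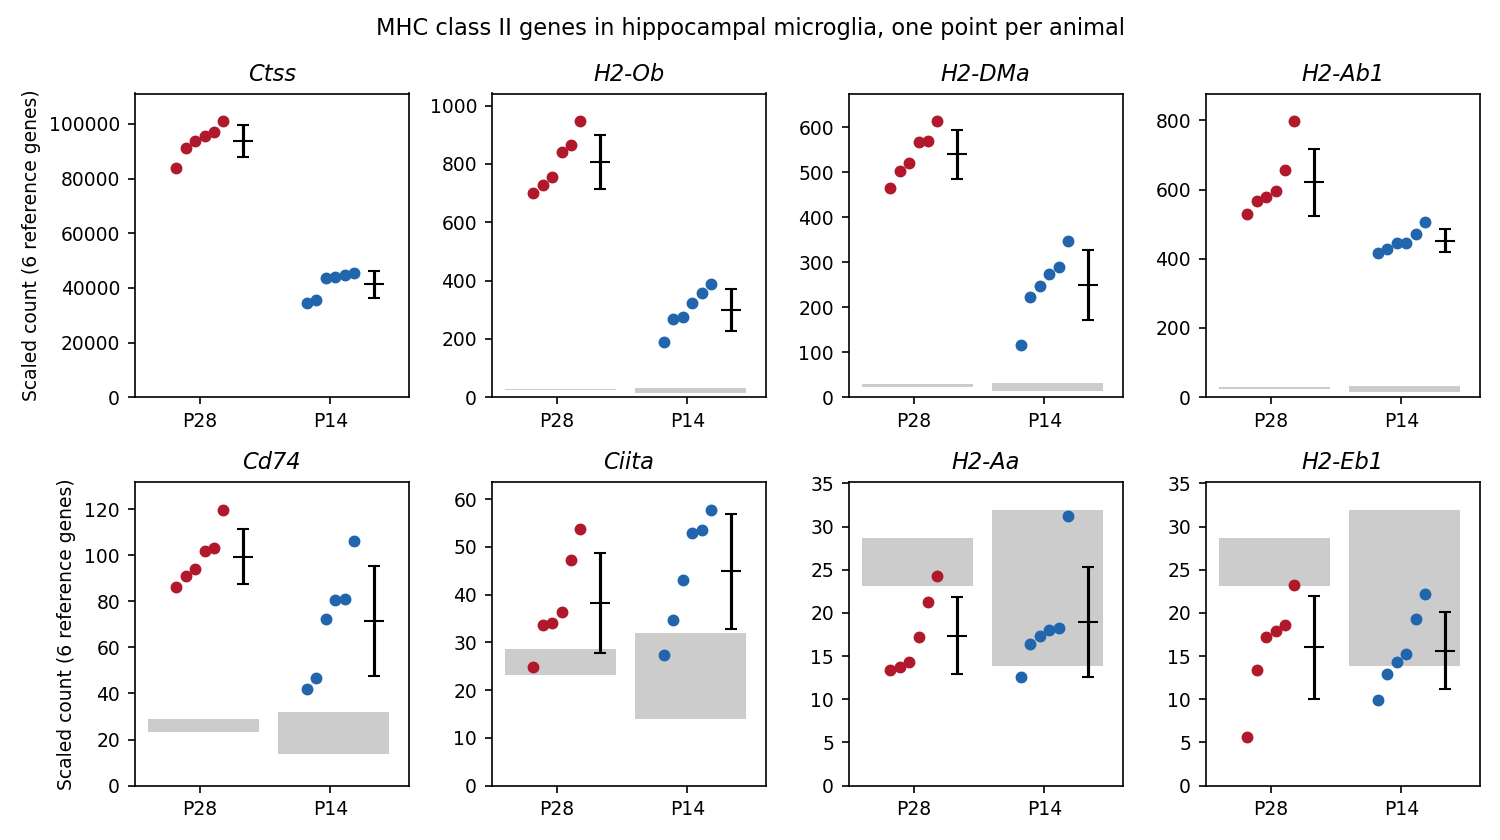
Scaled counts (vertical axes, from 0) of the 8 members, 1 point per animal in order of value, with mean ± SD beside them (n = 6 each) for P28 and P14. Grey bands span the background lines of the lanes on the same scale; points of Ctss, H2-Ob, H2-DMa and H2-Ab1 do not overlap between the ages, and those of H2-Aa and H2-Eb1 lie in or under the bands, which join the lines of all lanes; each gene passed its own lane's line in 2 P14 samples.

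Ctss encodes cathepsin S, the endosomal protease that trims the invariant chain in macrophages and B cells. Its scaled counts ran from 84011 through a median of 94548 to 101014 at P28, and from 34311 through 43849 to 45615 at P14. Every P28 sample was above every P14 sample, and the 2 lowest P14 values were those of samples 4 and 5. Ctss rose by a log2 fold change of 1.18 ± 0.10 (SE, adjusted p = 5.40e-07), and by 1.08 ± 0.07 without P14 samples 4 and 5. Animals of an age were close together, with a coefficient of variation of 6.17% at P28 and 12.1% at P14.

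H2-Ob is the beta chain of H2-O, the modulator of H2-DM. Its scaled counts ran from 700.6 through a median of 798 to 947 at P28, and from 188 through 300.3 to 389 at P14. The ages did not overlap, and P14 sample 5 was the lowest of all. H2-Ob rose by 1.42 ± 0.16 (adjusted p = 1.02e-05), place 11 of the 366 genes when ordered from the largest rise. Its partner chain gene H2-Oa was not listed by that name among the 545 immune genes.

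H2-DMa is the alpha chain of H2-DM, the peptide exchange factor. Its scaled counts ran from 464 through a median of 544 to 614 at P28, and from 116 through 261 to 348 at P14. The ages did not overlap, P14 sample 61 was the lowest, and P14 samples 4 and 5, low for Ctss, were the highest of P14. H2-DMa rose by 1.12 ± 0.20 (adjusted p = 0.000711). Its animals differed more from each other at P14 than at P28, with an SD of 54.2 around a mean of 539.5 at P28 and of 78.1 around 249.6 at P14, a difference in spread that was not tested. A probe for H2-DMb2, a beta chain of the same molecule, was above background in 4 of 12 samples and was not tested.

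H2-Ab1 is the beta chain of the classical class II molecule of mice, H2-A. Its scaled counts ran from 531 through a median of 588 to 798 at P28, and from 417 through 446 to 507 at P14. The ages did not overlap, but the gap between the lowest P28 and the highest P14 sample was small beside the range at P28. H2-Ab1 rose by 0.46 ± 0.11 (adjusted p = 0.00754). Scaled to positive controls alone, a scale on which the median of all genes was -0.74, the value was -0.25 ± 0.33, and scaled to total counts the rise did not pass (0.29 ± 0.13, adjusted p = 0.0780). Of all genes tested, 12.8% had every P28 sample above every P14 sample, as these 4 members did, 7.92% had every P28 sample below, and 20.8% did one or the other.

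The alpha chain of the same molecule, H2-Aa, was not tested. Its raw counts were 24, 12, 15, 27, 17 and 24 in P28 samples 118, 134, 135, 119, 137 and 138, none above the background line of its lane. They were 24, 7, 15, 20, 19 and 19 in P14 samples 4, 5, 16, 25, 61 and 81, above the line in samples 4 and 25. H2-Eb1, the beta chain of the second classical molecule H2-E, had 5 to 25 raw counts at P28 and 4 to 23 at P14 and was above the line in 0 of 6 P28 and 2 of 6 P14 samples. Neither gene allows a fold change here. H2-Ea-ps, the alpha chain gene of H2-E, which is a pseudogene in C57BL/6J mice, was tested and had a log2 fold change of 0.07 ± 0.19 (adjusted p = 0.808). It was near background, with 30.8 ± 8.41 scaled counts at P28 and 29.4 ± 4.96 at P14. At each age 5 of 6 samples were above the line. Mouse strains differ in sequence at these polymorphic genes, and whether the probes match the Balbc alleles was not tested. In every sample H2-Ab1 lay far above the line of its lane.

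Cd74 encodes the invariant chain, the chaperone of class II molecules. Its scaled counts ran from 86.0 through a median of 98.0 to 120 at P28, and from 42.0 through 76.4 to 106 at P14. The ages overlapped: P14 sample 61 lay within the P28 range, and P14 samples 4 and 5 were the lowest. The log2 fold change was 0.45 ± 0.20, a size close to that of H2-Ab1, but it did not pass (adjusted p = 0.0957). Leaving out P14 sample 61 alone gave 0.59 ± 0.19 and a pass (adjusted p = 0.0269), and leaving out P14 samples 4 and 5 gave 0.23 ± 0.14 and none (adjusted p = 0.221). It also passed with all 14 reference genes (0.54 ± 0.17, adjusted p = 0.0209) and was at -0.34 ± 0.39 with positive controls alone. In the authors' deposited table the ratio of means was 1.52 with a p-value of 0.0049, and that of H2-Ab1 was 1.49 with 0.001. The authors' deposited table also gives ratios of 2.93 for H2-Ob, 2.48 for Ctss, 2.34 for H2-DMa and 0.93 for Ciita.

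Ciita, the coactivator of the class II genes, was near background. Its raw counts ran from 26 to 75 at P28, above the line in 5 of 6 samples, and from 14 to 67 at P14, above the line in 6 of 6. Its scaled counts ran from 24.8 through a median of 35.2 to 53.9 at P28, and from 27.4 through 48.1 to 57.8 at P14, and the ages overlapped. The log2 fold change was -0.25 ± 0.21 (adjusted p = 0.429), where Ctss, H2-Ob and H2-DMa were each above 1. With positive controls alone it was called lower (-0.99 ± 0.40, adjusted p = 0.0493), on a scale on which 128 of the 366 genes were.

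**Figure D2:**
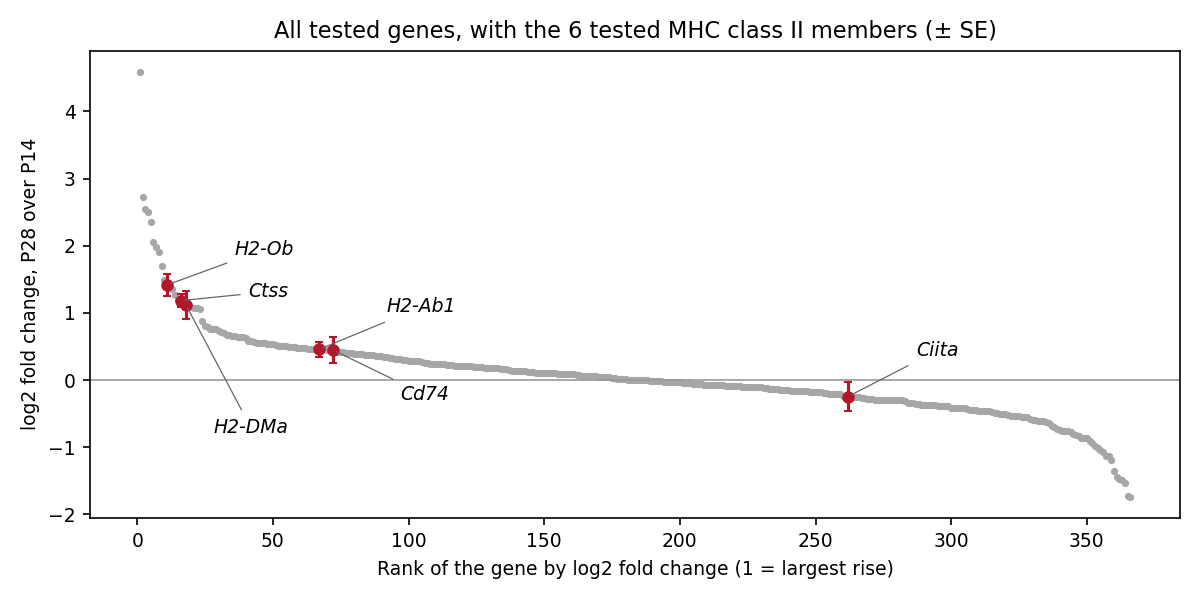
Log2 fold change (vertical axis, P28 over P14) of the 366 tested genes against their rank from the largest rise; grey points are all genes and red points with SE bars the 6 tested members. H2-Ob, Ctss and H2-DMa stand at ranks 11, 16 and 18, H2-Ab1 and Cd74 at 67 and 72, and Ciita at 262.

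Ratios of 2 members within a sample do not depend on how samples are scaled, so they show whether counts of members changed unequally. A lane difference that acts unequally on probes would also move a ratio, and it cannot be told apart from age here. Of 7 ratios compared by exact two-sided permutation tests, 4 differed between the ages after Benjamini-Hochberg adjustment over the 7. All of these but Ctss to Cd74 share H2-Ab1 as the denominator, so the 4 are not separate results. How often ratios of other genes differ was not computed, and 20.8% of single genes tested had no overlap between the ages. With 6 animals per age these tests allow no p under 0.00216. The size of a ratio itself depends on the probes, so only its change is read.

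The ratio of Ctss to its substrate gene Cd74 was higher at P28, with a log2 mean of 9.88 ± 0.15 at P28 and 9.21 ± 0.32 at P14 (SD, n = 6 each). The difference of 0.67, or 1.59-fold, held in all 6 against all 6 samples (exact p = 0.00216, adjusted p = 0.00379), but with the negative-control mean subtracted from the low Cd74 counts it was 0.51 (exact test, adjusted p = 0.0985). The ratio of Ctss to H2-Ab1 was higher by 0.75, with 7.25 ± 0.15 at P28 and 6.50 ± 0.25 at P14. The ratio of H2-Ob to H2-Ab1 was higher by 1.01, or 2.01-fold, with 0.38 ± 0.10 at P28 and -0.62 ± 0.40 at P14. The ratio of H2-DMa to H2-Ab1 was higher by 0.73, with -0.20 ± 0.25 at P28 and -0.93 ± 0.47 at P14. In each of these last 3 ratios the samples of the ages did not overlap and the adjusted exact p was 0.00379. Counts of the protease and both loading genes thus differed between the ages by more than those of the classical beta chain did.

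The other 3 ratios did not pass. The ratio of H2-Ob to H2-DMa averaged 0.58 ± 0.25 at P28 and 0.30 ± 0.79 at P14 (exact p = 0.424, adjusted p = 0.495), with P14 sample 61 far above the rest of P14. The ratio of Cd74 to H2-Ab1 averaged -2.63 ± 0.25 at P28 and -2.71 ± 0.55 at P14 (exact p = 0.755). The ratio of Ciita to H2-Ab1 averaged -4.02 ± 0.54 at P28 and -3.34 ± 0.49 at P14, a difference of -0.68 (exact p = 0.0455, adjusted p = 0.0636). It passed without P14 sample 4 (-0.84, exact test, adjusted p = 0.0182) or P28 sample 118 (-0.79, adjusted p = 0.0485). With the negative-control mean subtracted from these low counts it was -0.77 and did not pass (exact test, adjusted p = 0.148).

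**Figure D3:**
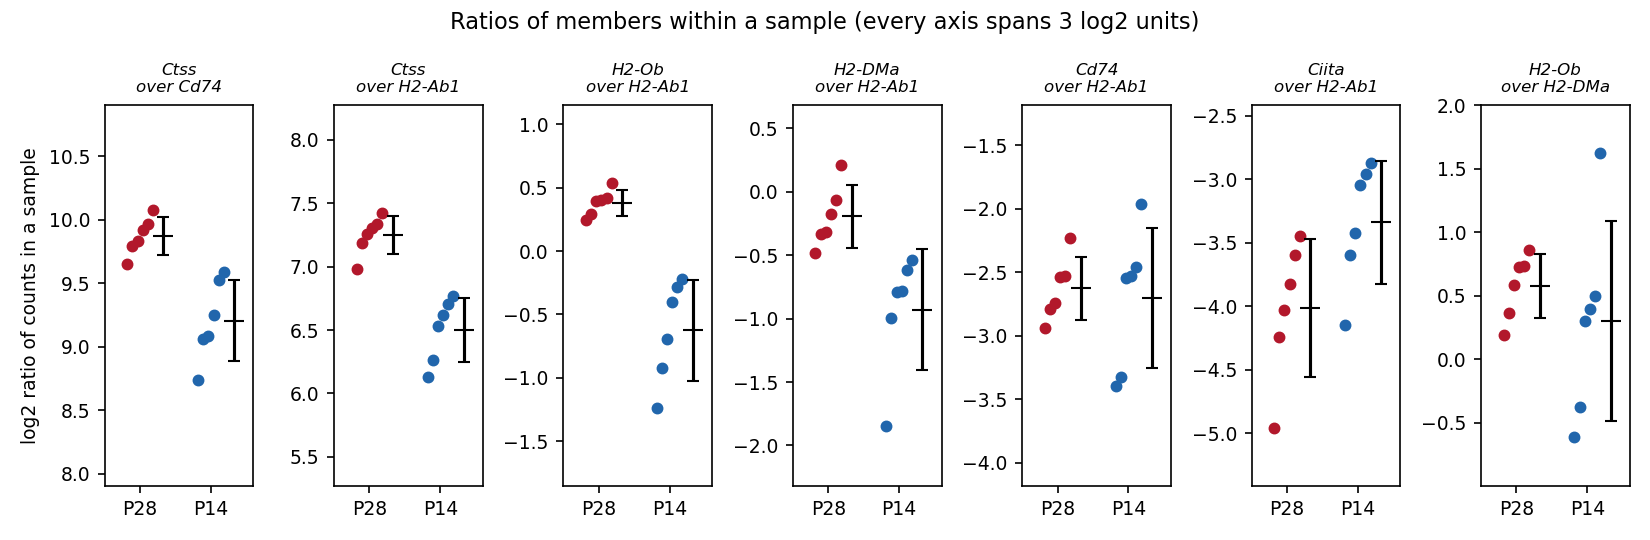
Log2 ratio of the counts of 2 members in each sample (vertical axes, each spanning 3 log2 units) for P28 and P14, 1 point per animal in order of value, with mean ± SD (n = 6 each). The ratios of Ctss to Cd74 and of Ctss, H2-Ob and H2-DMa to H2-Ab1 do not overlap between the ages; the other 3 do.

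None of the pairs of members compared here moved together from animal to animal in a way that passed a test. Other pairs of members were not tested. Among those, with the mean of each age taken off, r over the 12 samples ran from -0.73 (H2-DMa with Cd74) to 0.82 (H2-Ob with Ctss). Over 8 correlations within an age (n = 6 each), the strongest was that of Cd74 with Ctss at P14, with Pearson r = 0.96 (exact permutation p = 0.0167, adjusted p = 0.133) and Spearman rho = 0.77 (exact p = 0.103, adjusted p = 0.569). It was 0.69 without P14 samples 4 and 5, which were lowest for both genes, over the 4 samples left. At P28 the same pair had r = 0.47 (exact p = 0.328) and rho = 0.66 (exact p = 0.175). The other 3 pairs that were tested did not pass at either age. H2-DMa and H2-Ob had r = -0.32 at P28 (exact p = 0.539) and -0.44 at P14 (exact p = 0.336). Cd74 and H2-Ab1 had r = 0.13 at P28 (exact p = 0.689) and -0.55 at P14 (exact p = 0.264). Ciita and H2-Ab1 had r = -0.64 at P28 (exact p = 0.178) and -0.81 at P14 (exact p = 0.075). Leaving out 1 sample moved r at P28 between -0.77 and 0.073 for H2-DMa with H2-Ob, between -0.76 and -0.030 for Ciita with H2-Ab1 and between -0.056 and 0.63 for Cd74 with H2-Ab1. With all 14 reference genes Cd74 with Ctss at P28 was 0.0077, and Cd74 with H2-Ab1 at P28 was -0.072. With positive controls alone as the scale all 8 correlations were positive, from 0.36 to 0.98, and none passed (lowest adjusted exact p = 0.0889).

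After the mean of each age was taken off, the genes whose levels followed each member most closely over the 12 samples were different for each member. All share the scaling of their samples, and the values are descriptions. For Ctss these were Cd27, C1qa and Fcgr1 (r = 0.96, 0.96 and 0.95), where the median over all genes was 0.41. For H2-Ob they were Il7r, Cd14 and Tapbp (0.93, 0.91 and 0.89, median 0.32), and for Cd74 Il4ra, Cd9 and Tnfrsf1b (0.92 each, median 0.48). For H2-DMa they were Ebi3, Cd81 and Csf2rb (0.87, 0.72 and 0.72, median -0.25). For H2-Ab1 they were Ptpn6, Btnl2 and Cd80 (0.72, 0.68 and 0.64, median -0.079), and for Ciita Psmd7, Casp2 and Fyn (0.78, 0.78 and 0.75, median 0.22). Btnl2 was near background, above the line in 2 of 6 P28 and 4 of 6 P14 samples.

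**Figure D4:**
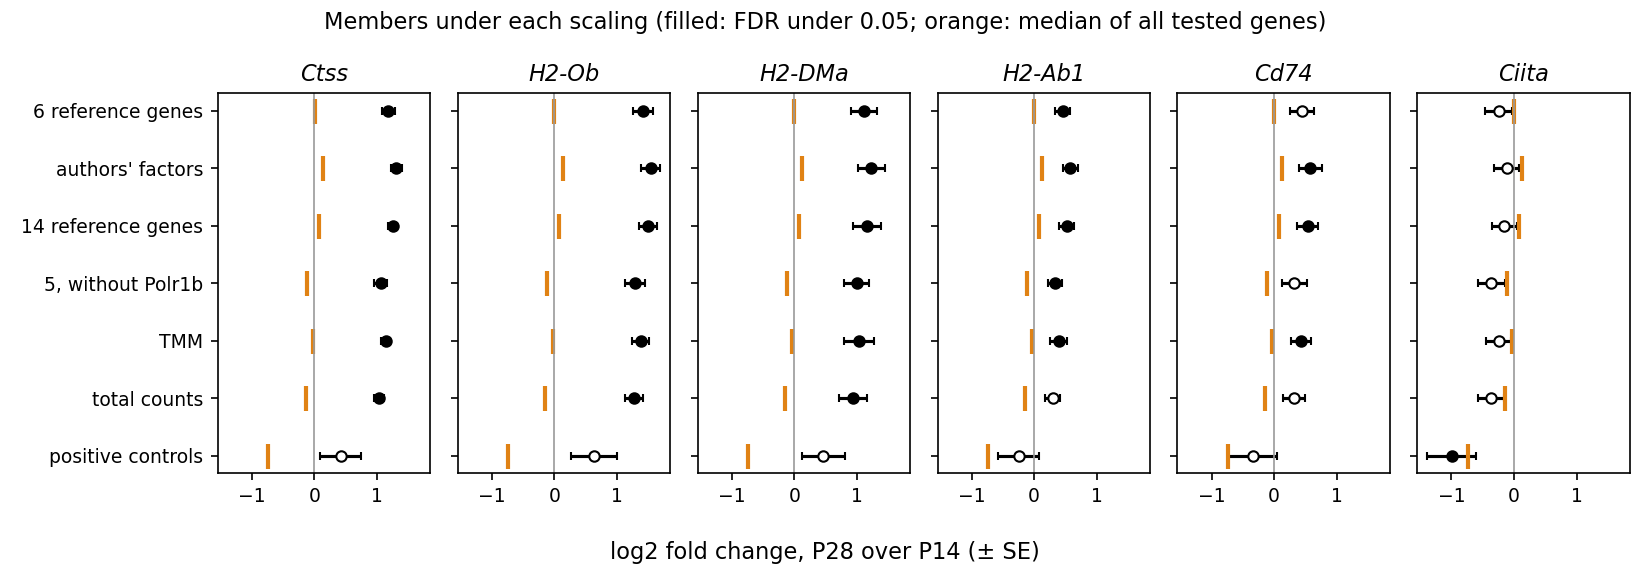
Log2 fold change (horizontal axes, P28 over P14, ± SE) of the 6 tested members under 7 scalings of the counts (rows); filled points passed an FDR of 0.05 and orange marks are the median of all tested genes on that scale. Positive controls alone move the median to -0.74; H2-Ob, Ctss and H2-DMa stay at 0.64, 0.42 and 0.47 there, while H2-Ab1 and Cd74 turn negative.

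The scale set the size of these differences. With positive controls alone the median of all genes was -0.74, and 0 members were called higher and 1, Ciita, lower. On that scale H2-Ob was at 0.64 ± 0.37, H2-DMa at 0.47 ± 0.34 and Ctss at 0.42 ± 0.33, none of them past the test. Relative to the median of all genes they stood at 1.37, 1.20 and 1.16 there, and at 1.41, 1.11 and 1.18 with the 6 reference genes. A change of scale moves all genes by nearly the same amount. The closeness of these values therefore follows from the calculation and is no further test of the rises.

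Interferon gamma is the main known inducer of Ciita in macrophages. Of 11 tested genes of its pathway 2 were higher and 0 lower. Among all 366 genes tested 16.7% were higher and 13.9% lower, and the counts of this and the later lists are to be read beside those shares. The median log2 fold change was 0.10 over the 11 genes and 0.00255 over all genes tested. Cxcl9, a chemokine that interferon gamma induces, rose by 2.49 ± 0.17, with 97.9 ± 13.2 scaled counts at P28 and 16.9 ± 4.69 at P14, above background in 6 of 6 P28 and 2 of 6 P14 samples, so the P14 level is mostly at background. Socs3, a feedback inhibitor of cytokine signalling, rose by 1.19 ± 0.26. The receptor chain Ifngr2 (0.24 ± 0.16) and the chemokine Cxcl10 (-1.48 ± 0.65, adjusted p = 0.0989) did not pass, and Ifng itself was not tested. Leaving out P14 samples 4 and 5 made it 2 higher and 3 lower. With positive controls alone it was 1 higher and 3 lower: Socs3 did not pass there (0.34, adjusted p = 0.469) and Cxcl10 was called lower (-2.34, adjusted p = 0.00629).

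Of 12 tested genes of IL-4, IL-10 and TGF-beta signalling and of repressors and partners of Ciita, 2 were higher and 0 lower, against 7 and 0 with all 14 reference genes. Xbp1, a factor of the unfolded protein response, rose by 0.50 ± 0.11 and Prdm1, the repressor Blimp-1 that silences Ciita in plasma cells, by 0.31 ± 0.11 (adjusted p = 0.0409). Both turned negative with positive controls alone, at -0.27 and -0.38. Tgfbr2 (0.48 ± 0.17, adjusted p = 0.0512) and Irf4 (0.67 ± 0.27, adjusted p = 0.0789) did not pass.

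Genes that act beside class II at the contact with T cells changed in part. Of 5 tested, 2 were higher and 1 lower. Icosl, the ligand of ICOS, rose by 1.09 ± 0.16, with 1810 ± 178 scaled counts at P28 and 847 ± 211 at P14, and Cd274, the ligand PD-L1, by 1.11 ± 0.18. Icos, the T cell receptor of Icosl, fell by a log2 change of -0.42 ± 0.11, and the co-stimulatory ligands Cd80 (0.04 ± 0.14) and Cd86 (-0.25 ± 0.24) did not pass. With positive controls alone 0 of the 5 were higher and 2 lower: Icosl (0.30, adjusted p = 0.482) and Cd274 (0.39, adjusted p = 0.347) did not pass there, and Cd86 was called lower (-1.09, adjusted p = 0.0409). Cd4, the receptor that binds class II, and Cd3d, Cd3e, Cd247, Cd28 and Ctla4 were not tested. Of 9 tested genes of MHC class I and its loading, 3 were higher and 1 lower: the proteasome genes Psmb10 (0.65 ± 0.09), Psmb9 (0.50 ± 0.11) and Psmc2 (0.53 ± 0.12) rose, while the positive-control scale gave -0.088, -0.21 and -0.25, and B2m, the class I light chain, fell (-0.26 ± 0.08, adjusted p = 0.0261, and 0.0536 with all 14 reference genes).

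Markers of other cells that carry class II were read in the same samples. Among the B cell genes, Pax5, Cr2 and Cd22 were not tested. Of the 7 tested, Cd79a rose by 0.76 ± 0.18, but was at -0.0095 with positive controls alone, and Cd79b fell by -1.20 ± 0.18, while Blnk (0.37 ± 0.18) and Tnfrsf13b (0.31 ± 0.25) did not pass. Cd79a was near background, with 36.5 ± 6.16 scaled counts at P28 and 20.7 ± 5.94 at P14. It was above the line in 6 of 6 P28 and 4 of 6 P14 samples. The summed level of the B cell list was 4234 to 5711 scaled counts at P28 and 3458 to 5431 at P14, of which Blnk averaged 4174 ± 563 at P28 and 3223 ± 891 at P14. Of 7 dendritic cell genes, Ccr7 and Xcr1 were not tested. Of the 5 tested, Itgax rose by 1.91 ± 0.22 and Cd83 by 0.67 ± 0.16 (-0.12 with positive controls alone), and Irf4, Batf3 (0.24 ± 0.11) and Cd1d1 (-0.03 ± 0.19) did not pass. The summed level of this list was 1945 to 2464 at P28 and 989 to 1686 at P14, with no overlap, and most of it was Cd83, at 1536 ± 161 at P28 and 966 ± 239 at P14. Its part in the rise of the class II genes was not tested.

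Among the genes of monocytes and border macrophages, Cd163, Msr1, Marco, S100a8 and S100a9 were not tested. Of the 6 tested, Ccl24 rose by 0.54 ± 0.16 (-0.14 with positive controls alone) and Itgal was called lower, with 0 of 6 P28 and 6 of 6 P14 samples above background, while Ccr2 (0.42 ± 0.27), Itga4 (0.51 ± 0.19), Fn1 (-0.61 ± 0.23) and Cd14 (0.10 ± 0.18) did not pass. Their summed level was 8050 to 10758 at P28 and 5325 to 11686 at P14, of which Cd14 averaged 9263 ± 957 at P28 and 8622 ± 2601 at P14. Of 10 tested genes of the T cell list 2 were called higher (Cd96 and Cd5) and 2 lower (Lck and Icos). The list and its sum also hold Cd3eap, a gene not particular to T cells, which averaged 93.2 scaled counts at each age and did not pass. Cd96 was above background in 6 of 6 P28 and 0 of 6 P14 samples and Cd5 in 6 of 6 P28 and 3 of 6 P14 samples, so these genes passed the presence rule mainly through the age where they were high. Cd3d, Cd3e and Cd247 were not tested, and the summed level of the list was 601 to 728 at P28 and 670.0 to 779 at P14. Of 6 tested NK cell genes Klrd1 was called higher, with 6 of 6 P28 and 2 of 6 P14 samples above background. Klrk1 and Gzma were called lower, each with 0 of 6 P28 and 5 of 6 P14 samples above background, and Klrc1, Prf1 and Tbx21 did not pass; the summed level was 292 to 395 at P28 and 141 to 314 at P14. Of 5 tested neutrophil and mast cell genes Cxcr2 was called lower, with 0 of 6 P28 and 6 of 6 P14 samples above background, and Csf3r, Ltf, Ccr3 and Il1rl1 did not pass; the summed level was 4433 to 8490 at P28 and 3135 to 8896 at P14, of which Csf3r averaged 5186 ± 1504 at P28 and 4626 ± 2404 at P14. Of 4 tested endothelial and mural genes Cd34 and Pdgfrb (0.41 ± 0.14, -0.35 with positive controls alone) were higher, Cdh5 was lower and Pecam1 did not pass, and their summed level was 6209 to 14661 at P28 and 3101 to 4875 at P14, with no overlap, of which Cd34 averaged 6972 ± 2568 at P28 and 1198 ± 373 at P14 (SD, n = 6 each). Of the 12 microglia markers Trem2 and Runx1 were higher, at -0.065 and -0.31 with positive controls alone, Emr1 was lower (-0.72 ± 0.08), and 9, among them Itgam (-0.37 ± 0.17), did not pass. With all 14 reference genes 4 of the 12 were higher and 1 lower, and with positive controls alone 0 were higher and 4 lower, Itgam among them (-1.03). Without P14 samples 4 and 5 the higher calls numbered 2 of the B cell, 1 of the neutrophil and mast cell and 1 of the endothelial and mural genes, and the lower calls 2 of the co-stimulation genes, 2 of the class I genes and 1 of the genes that modulate class II. The part of these other cells in the class II values was not tested.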

How the data were processed

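Microglia of 12 pups were measured. Per the labels' protocols, cDNA made from 2 ng of RNA went through 5 PCR rounds before hybridisation. The deposited raw table holds barcode counts per probe that the authors did not scale: 545 immune genes, 14 reference genes, 8 negative and 6 positive controls. Amplified copies are not independent, and no counting intervals are given. The authors' second table holds values scaled to positive controls and reference genes, used here as a score, with a ratio of means and, per the file headers, a p-value of a t-test whose kind is not stated there.

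Group and sample number come from the sample titles. Raw counts of the 366 genes above background were tested with edgeR 4.0.16 in R 4.3.3 (glmQLFit, glmQLFTest), with the geometric mean of Alas1, Gapdh, Oaz1, Polr1b, Sdha and Tbp as offset and age alone in the model. P-values were adjusted by Benjamini-Hochberg over all 366. The labels count 5 such genes and list these 6. Alternatives used DESeq2 1.42.0, limma 3.58.1 (log2 scaled counts with a pseudocount of 1 or 20), other scalings and presence rules, and samples left out. Ratios used log2 counts with a pseudocount of 1. Since H2-Aa was not above background often enough, H2-Ab1 took its place in ratios and correlations, a choice made after the data were seen. The members and the 13 other gene lists were chosen with earlier results of these data known. From a list with more than 6 tested genes the 4 with the smallest adjusted p are named, otherwise all; the 3 genes most like each member were named by Pearson r. The fits were tested on simulated data. Gene symbols are those of the table, and sequences are from RefSeq, GRCm38.p6.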

Additional observations from a re-analysis of the deposited data

Results flagged for a closer look

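Of 30 groups of 6 values examined (members and ratios at each age), 2 held a sample far from the others; chance alone flags about 1 in 20 such groups. H2-Aa in P14 sample 4 stood at 31.3 scaled counts, where the other P14 samples lay between 12.6 and 18.3, a gap of 0.693 of the range. That sample had 24 raw counts, the same as P28 samples 118 and 138, whose lanes had higher background lines. The log2 ratio of H2-DMa to H2-Ab1 in P14 sample 61 was -1.84, a gap of 0.65 of the P14 range; H2-DMa was at 116 scaled counts there and H2-Ab1 at 417, the lowest P14 value of each. Without that sample the difference in this ratio was 0.55, the smallest among the samples left out in turn.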

How the results depend on the processing

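Calls of Ctss, H2-Ob and H2-DMa kept their direction and their side of the threshold under 26 of 27 alternatives each; the exception, positive controls alone, gave 0.42, 0.64 and 0.47 (adjusted p = 0.268, 0.147 and 0.236). H2-Ab1 held under 25 of 27: it was 0.29 with total counts (adjusted p = 0.0780) and -0.25 with positive controls alone (adjusted p = 0.513). Cd74 passed under 5, at 0.43 with TMM, 0.58 with the authors' scale factors, 0.65 with limma on the authors' values and 0.54 with all 14 reference genes and, between 0.35 and 0.59 over samples left out in turn, only without P14 sample 61; it was -0.34 with positive controls alone. Ciita was called only with positive controls alone (-0.99), where members called higher numbered 0 and lower 1; the cause was not tested. The ratio of Ctss to Cd74 was 0.51 with the negative-control mean subtracted (exact test, adjusted p = 0.0985). A pair of ratios that did not pass changed sign: H2-Ob to H2-DMa was -0.13 without P14 samples 4 and 5, and Cd74 to H2-Ab1 was -0.11 with a pseudocount of 20, -0.25 without P14 samples 4 and 5 and -0.061 to 0.23 over samples left out in turn. Ciita to H2-Ab1 passed under 4 alternatives, among them -0.71 with a pseudocount of 20 and -0.94 without P14 samples 4 and 5. It did not pass under 12, among them -0.77 with the negative-control mean subtracted (exact test, adjusted p = 0.148). Over samples left out in turn it ran from -0.84 to -0.49. Over all genes the 61 higher and 51 lower calls became 89 and 26 with limma on the authors' values, 68 and 90 without P14 samples 4 and 5, and 46 and 32 at an FDR of 0.01. H2-Aa and H2-Eb1 were above background in 2 of 12 samples each, too few for a test. Planned ratios and correlations with H2-Aa were not run, since it was not above background often enough. No paired analysis was possible because the ages share no sample numbers.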
